A study of Homo sapiens with 9 samples.

Results

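The transcripts of 10 genes were followed in RNA-seq libraries of HCT116 cells transfected with small interfering RNAs (siRNAs) designed against SNHG5, a long non-coding RNA. The genes were 6 subunits of the transcription factor AP-1 (FOS, FOSL1, FOSL2, JUN, JUNB and JUND), the related factor ATF3, the zinc finger factor EGR1, and IER2 and IER3, which bear the name immediate early response. They were chosen by symbol, through the Ensembl gene identifier of each row, with no threshold on their values. Earlier results of these data were known at that choice, so the counts below describe these genes and do not test them as a set. All 10 were found among the 15354 rows of the deposited table, and all 10 passed the filter on low values that left 13893 genes for testing. HCT116 is an established human colorectal cancer cell line. The 9 libraries were 3 per group by the labels, from cells reverse transfected with 25 nM of a non-targeting control siRNA, of siRNA A or of siRNA B, so that the controls went through transfection too. The transfections were transient and were read at a single time point, in poly(A)-selected RNA from cultures that the study calls biological replicates. The labels do not say which of the study's own siRNA names stands for A and which for B.

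AP-1 is a dimer of basic leucine zipper proteins. A FOS family protein needs a JUN family partner to bind DNA, whereas JUN proteins can also pair with one another or with ATF proteins. Many of these genes are immediate early genes, which means that growth factors, stress and the MAP kinase cascades switch on their transcription from factors already present in the cell, without new protein synthesis. In epithelial cancers, FOSL1 and JUNB are among the subunits linked to migration and invasion, and JUND is the JUN protein most often found in quiescent cells.

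The targeted RNA was examined in every library before any direction was drawn. SNHG5 had counts per 1e+06 reads (CPM) of 35.6, 26.3 and 28.6 in control, of 63.9, 50.0 and 61.5 under the label siRNA A, and of 47.8, 47.7 and 45.2 under the label siRNA B. It was thus higher in all 6 libraries labelled as knock-downs, which goes against the labels, and the groups are therefore named by their labels throughout. The study itself reported lower SNHG5 with its siRNAs by qRT-PCR. In GENCODE lifted to GRCh37, SNHG5 spans chr6:86360209-86388650 and is overlapped on the same strand by PKMP3 and an unnamed gene. The annotation used in counting may differ in this span and in these overlaps. The source of the reads counted for SNHG5 was not tested. Markers of colon epithelium were present, with 8 of 8 in the table and summed levels of 2095 to 2183 CPM in control, 2805 to 3441 CPM with siRNA A and 2393 to 2452 CPM with siRNA B. CEACAM5, 1 of the 8, was at 0 in control and siRNA B and at most 0.0642 CPM with siRNA A. Fibroblast markers (3 of 5 in the table) summed to 18.3 to 19.5, 9.44 to 12.4 and 8.55 to 9.42 CPM, carried by COL1A1 with LUM at 0, immune markers (2 of 5) stayed at or under 0.556 CPM, and none of 3 endothelial markers was listed. The epithelial sum was carried by KRT8, KRT18 and KRT19, and the markers did not move together. Of 7 tested, 3 rose and 2 fell with siRNA A, and 2 rose and 1 fell with siRNA B. EPCAM fell by 0.55 on the log2 scale with siRNA A (adjusted p = 0.00121 by limma), and CDX2 fell by 0.52 and 0.43 with siRNA A and B (adjusted p = 0.00413 and 0.0182 by limma). The part of these markers in the levels described here was not tested.

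The libraries held 15566530 to 23277549 reads. Levels are given below as TMM-scaled CPM, that is, CPM divided by a factor per library (trimmed mean of M values) that aligns the bulk of the genes. These factors were 1.10 to 1.19 in control, 0.850 to 0.914 with siRNA A and 0.948 to 1.04 with siRNA B, so library totals alone place most genes lower in the siRNA libraries. Over all genes tested, the median log2 fold change with siRNA A was −0.02 after TMM scaling and −0.34 by totals alone. With siRNA B these medians were 0.0043 and −0.18. Directions are relative to the TMM scale, and the totals are named where they change a call. In bulk RNA, fewer cells of a type and less RNA per cell cannot be told apart.

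Promoter sequences were looked up for the genes, since the members share a mode of induction and their control elements lie close to the start. Of the 10 genes, 8 matched an entry of the RefSeq promoter table (build GRCh38.p14), with 2 start sites for ATF3. FOSL1 and IER3 did not match. The 250 bases before each start were searched on both strands for motifs of the factors that read growth and stress signals. The stretches shown here hold matches to the motifs named next, and matches to other motifs are not marked. For ATF3, the match before its other start site, given below, is not shown. Capitals mark matches to the short form of the cAMP response element (CRE, TGACGT), to the CRE-like AP-1 site (TGACNTCA, which includes the full CRE), to the serum response element core (SRE, the CArG box bound by SRF) and to the TATA box (TATAAA). The short CRE and the CRE-like site can overlap.
FOS, chr14:75278728-75278827, plus strand: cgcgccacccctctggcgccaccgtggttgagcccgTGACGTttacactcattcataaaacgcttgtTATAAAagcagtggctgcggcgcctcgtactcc
EGR1, chr5:138465329-138465478, plus strand: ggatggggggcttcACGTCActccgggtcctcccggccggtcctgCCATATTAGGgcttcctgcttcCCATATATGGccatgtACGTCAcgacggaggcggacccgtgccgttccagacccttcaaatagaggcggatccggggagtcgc
JUN, chr1:58784048-58784147, minus strand: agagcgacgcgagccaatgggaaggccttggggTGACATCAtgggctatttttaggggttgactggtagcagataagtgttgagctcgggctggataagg
ATF3, chr1:212565257-212565406, plus strand: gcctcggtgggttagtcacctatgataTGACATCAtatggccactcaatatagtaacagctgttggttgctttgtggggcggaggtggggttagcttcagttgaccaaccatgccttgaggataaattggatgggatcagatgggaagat
JUND, chr19:18281623-18281842, minus strand: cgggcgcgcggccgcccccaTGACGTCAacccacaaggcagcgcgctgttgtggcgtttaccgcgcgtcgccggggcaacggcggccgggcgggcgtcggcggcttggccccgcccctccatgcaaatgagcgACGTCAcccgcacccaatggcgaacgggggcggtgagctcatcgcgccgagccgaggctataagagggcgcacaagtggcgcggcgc
FOSL2, chr2:28392768-28392857, plus strand: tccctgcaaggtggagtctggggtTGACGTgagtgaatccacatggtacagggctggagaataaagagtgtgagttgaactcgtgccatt
JUNB, chr19:12791426-12791485, plus strand: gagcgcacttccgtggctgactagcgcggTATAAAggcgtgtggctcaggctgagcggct

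The short CRE was found in 4 of the 8 genes, namely FOS, EGR1, FOSL2 and JUND, against 7.10% of the 35116 promoters of the table. The CRE-like AP-1 site was found in 3 of the 8, in JUN and ATF3 with A at the free position and in JUND as the full palindrome TGACGTCA, against 6.87% of all promoters. EGR1 alone held the SRE core, in 2 copies that began 105 and 83 bases before the start, and 1.16% of all promoters held at least 1. A TATA box stood 33 bases before the start of FOS and 31 before that of JUNB, and another match lay 230 bases before 1 of the 2 starts of ATF3, against 10.7% of promoters. The canonical AP-1 site TGANTCA matched in 0 of the 8 genes and in 6.57% of all promoters. The EGR site GCGTGGGCG (0.720% of promoters) and the STAT site TTCCNGGAA (0.968%) matched in none of the 8 either. The ETS core CCGGAA matched only in IER2 (14.5% of promoters), and the GC box GGGCGG in 6 of 8 genes (42.6%). A match describes these letters in this window and does not show that a factor was bound in these cells.

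**Figure D1:**
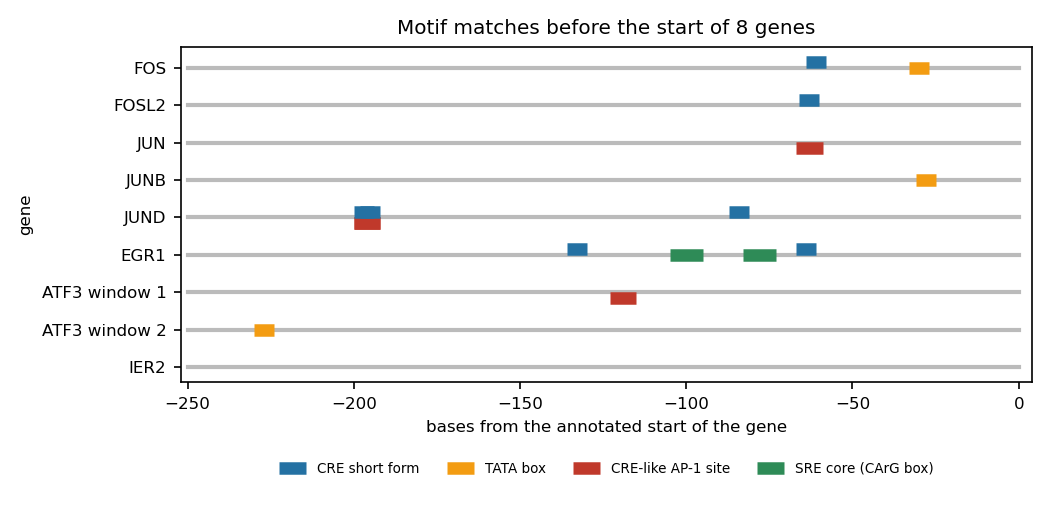
Matches to 4 motifs in the 250 bases before the annotated start of 8 genes, with position in bases from the start on the horizontal axis and 1 row per start site (ATF3 has 2). A short CRE of FOS, EGR1 and FOSL2 and the CRE-like site of JUN lay 59 to 67 bases before the start, and IER2 held none of the 4 motifs.

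The gene bodies had few exons. The canonical transcripts had a median of 2 exons (1 to 4), against 8 over the 13349 tested genes with an annotation, and a median length of 2022 bases (1237 to 6713) against 3094. FOSL2, JUN and EGR1 were longer than that median. JUN, JUNB and JUND have a single exon, a structure found in 2.91% of the tested genes. The genes spanned a median of 4163 bases of genome (1350 to 55444, the longest being ATF3), against 29700. They are scattered over 7 chromosomes on GRCh37. JUNB (chr19:12902300-12904129), IER2 (chr19:13261225-13265725) and JUND (chr19:18390504-18392432) share chromosome 19, and JUN (chr1:59242517-59249720) and ATF3 (chr1:212738676-212794119) share chromosome 1. FOS lies at chr14:75745529-75748933, FOSL1 at chr11:65659520-65668044, FOSL2 at chr2:28615315-28640184, EGR1 at chr5:137801168-137804992 and IER3 at chr6:30710976-30712325. Annotated genes overlap FOSL2 on the same strand (an unnamed gene) and on the other strand (FOSL2-AS1). On the other strand they also overlap JUNB (HOOK2), ATF3 (RN7SL512P), IER2 (2 unnamed genes) and IER3 (IER3-AS1 and HCG20). These overlaps are of GENCODE lifted to GRCh37, and the annotation used in counting may differ. Use of strand in counting was not given in the sources used here, so the reads of these 5 genes are uncertain to that extent.

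In the control libraries the transcripts differed widely in level when set per length (TMM-scaled CPM per kb of transcript, mean ± SD, n = 3). IER3, a stress-responsive regulator of survival, was the highest at 237 ± 17.9. FOSL1 followed at 124 ± 22.8 and IER2, a small nuclear protein, at 43.9 ± 2.62. JUND (30.9 ± 5.19), EGR1 (27.8 ± 4.92) and JUNB (27.0 ± 1.80) did not differ beyond their spread, nor did JUN (7.44 ± 3.07) from ATF3 (10.8 ± 3.62) or from FOSL2 (6.23 ± 0.853). The ATF3 and FOSL2 libraries did not overlap. FOS was the lowest at 3.57 ± 0.433, and its 151 to 370 reads per library were the fewest of the 10 genes.

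Nearly all of these genes stood higher in the libraries labelled siRNA A or siRNA B than in control. With siRNA A, 8 of 10 rose, none fell, and FOSL2 and JUND did not pass the test. Of all genes tested, 51.4% were called with siRNA A, 23.9% as higher and 27.6% as lower. In 9 of 10 members the 3 siRNA A libraries lay entirely above the 3 control libraries, as in 27.6% of all genes. With siRNA B, 9 of 10 rose, none fell, and IER2 did not pass. The shares of all genes were 34.0% called, 15.6% higher and 18.3% lower, and the siRNA B libraries lay above control without overlap in 9 of 10 members against 22.5% of all genes. The median over the 10 genes was 1.19 on the log2 scale with siRNA A, or 0.84 when scaled by library totals. With siRNA B these medians were 0.94 and 0.73. Both comparisons share the same control libraries. In 8 of the 10 members all 6 siRNA libraries were above all 3 controls, against 14.0% of all genes. Tests were made with limma and Benjamini-Hochberg adjustment over the 13893 genes, at a threshold of 0.05.

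**Figure D2:**
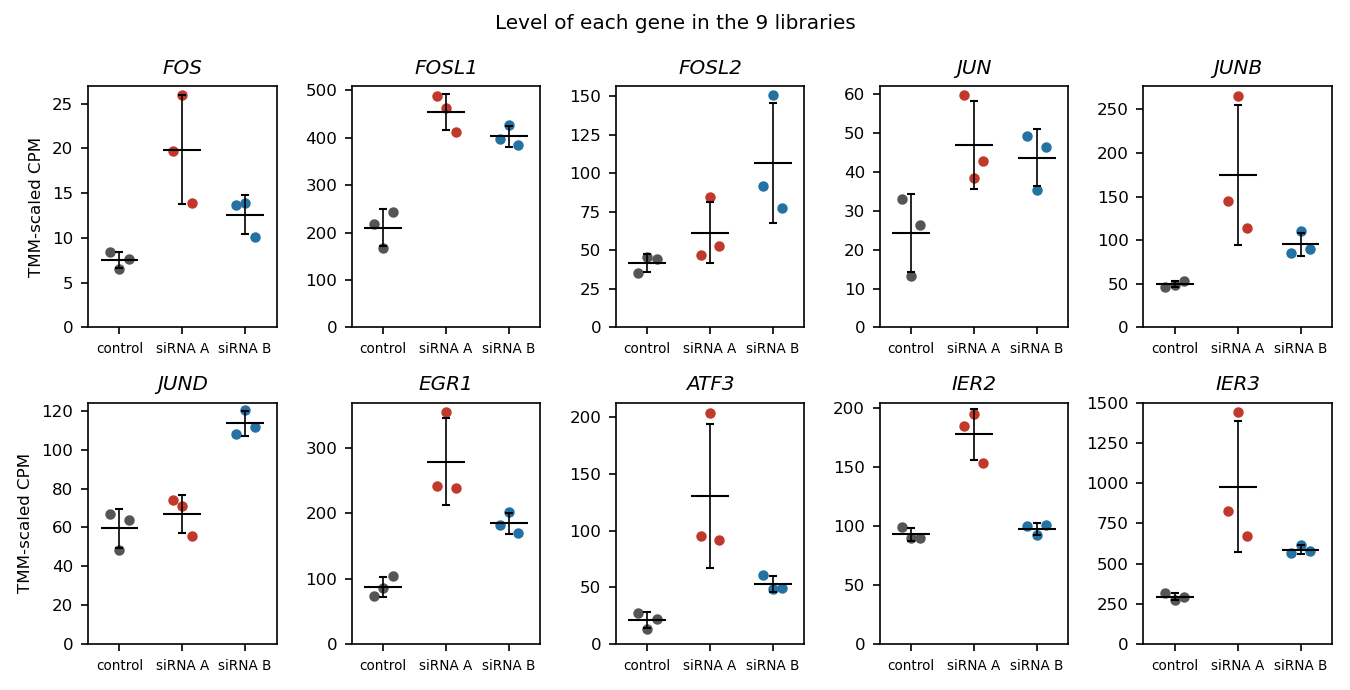
TMM-scaled CPM of each of the 10 genes in the 9 libraries (points), with the mean and SD of each group (lines, n = 3), each panel on its own axis from 0. ATF3, JUNB and IER3 were highest in siRNA A replicate 2, JUND and FOSL2 were highest with siRNA B, and IER2 was raised with siRNA A, where its 3 libraries stood at 153 to 194 against 89.2 to 99.0 in control.

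Of the FOS family, FOSL1 (FRA-1), which lacks the transactivation domain of FOS, supplied most of the transcripts. FOSL1 stood at 219, 168 and 244 TMM-scaled CPM in control, at 489, 462 and 413 with siRNA A and at 397, 427 and 385 with siRNA B. Every siRNA library was above every control library, and the siRNA groups overlapped each other. The log2 fold change was 1.12 with siRNA A (adjusted p = 5.57e-05 by limma, SE 0.13) and 0.95 with siRNA B (adjusted p = 0.000323 by limma). Between the siRNAs it differed by 0.17 (adjusted p = 0.339 by limma, SE 0.13).

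FOS itself, the founding member whose short-lived mRNA marks recent stimulation, was scarce throughout. It stood at 8.37, 6.56 and 7.60 TMM-scaled CPM in control, at 19.7, 26.0 and 13.9 with siRNA A and at 13.7, 13.9 and 10.1 with siRNA B. All siRNA libraries were above the controls, and the lowest siRNA A library lay within the siRNA B range. FOS rose by 1.26 on the log2 scale with siRNA A (adjusted p = 0.000363 by limma, SE 0.20) and by 0.67 with siRNA B (adjusted p = 0.0240 by limma). The rise with siRNA B did not pass with library totals alone (0.48, adjusted p = 0.0647 by limma), nor without control replicate 2 (0.57), control replicate 3 (0.66), siRNA B replicate 1 (0.60) or siRNA B replicate 2 (0.59), where adjusted p in limma ran from 0.0642 to 0.0970.

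FOSL2 (FRA-2), the other FOS-related antigen, had the reverse order between the siRNAs. It stood at 35.3, 46.0 and 44.3 TMM-scaled CPM in control, at 47.2, 84.4 and 53.0 with siRNA A and at 91.6, 151 and 77.3 with siRNA B. Replicate 2 was the highest library of each group, and the siRNA A group reached into the siRNA B range through that library. FOSL2 rose by 1.28 on the log2 scale with siRNA B (adjusted p = 0.00223 by limma, SE 0.25). Its value of 0.51 with siRNA A had an adjusted p of 0.104 in limma. With the replicate block, fitted over all 9 libraries, the same value had an adjusted p of 0.00802 in limma. The check described with the processing cannot show that the library numbers pair. FOSL2 with siRNA A also passed in the fit of only these 2 groups (adjusted p = 0.0482 by limma). It passed too without siRNA B replicate 2 (adjusted p = 0.0396 by limma), which entered the shared estimate of the spread. Without siRNA A replicate 2 the value was 0.26 (adjusted p = 0.381 by limma).

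The 3 genes of the JUN family, which supplies the obligate partners of FOS proteins, differed in how they ranked across the groups. JUNB stood at 46.3, 49.0 and 52.9 TMM-scaled CPM in control, at 145, 266 and 114 with siRNA A and at 84.8, 111 and 90.3 with siRNA B. None of the 3 groups overlapped, and siRNA A replicate 2 was far above the other libraries of its group. JUNB, a JUN protein that can restrain JUN activity and that responds quickly to growth factors, rose by 1.71 on the log2 scale with siRNA A (adjusted p = 0.000142 by limma, SE 0.24), a ratio of means of 3.54. With siRNA B it rose by 0.92 (adjusted p = 0.0110 by limma), a ratio of 1.93. Of all tested genes, 41 had a larger log2 fold change with siRNA A. Without siRNA A replicate 2 the rise with siRNA A was 1.37 (adjusted p = 7.01e-05 by limma).

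JUND is in many cells the least inducible of the JUN genes. It stood at 67.0, 48.3 and 63.6 TMM-scaled CPM in control, at 74.1, 71.0 and 55.7 with siRNA A and at 108, 121 and 112 with siRNA B. The siRNA A libraries overlapped the controls, and the siRNA B libraries were above all 6 others. With siRNA B it rose by 0.93 on the log2 scale (adjusted p = 0.000512 by limma, SE 0.14). With siRNA A the value was 0.17 (adjusted p = 0.342 by limma), and with library totals alone it was −0.20 (adjusted p = 0.217 by limma), so neither its direction nor a change was resolved.

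JUN, the prototype of the family and a substrate of the JNK kinases, spread more within groups. It stood at 33.0, 13.3 and 26.3 TMM-scaled CPM in control, at 59.8, 38.3 and 42.9 with siRNA A and at 49.2, 35.3 and 46.5 with siRNA B. Control replicate 2 was the lowest library, and all siRNA libraries were above all controls. The rise was 0.99 with siRNA A (adjusted p = 0.00973 by limma, SE 0.27) and 0.90 with siRNA B (adjusted p = 0.0241 by limma). Without control replicate 2 the rise with siRNA A was 0.62 (adjusted p = 0.0287 by limma). With library totals alone neither passed (0.64 and 0.70, adjusted p = 0.0552 and 0.0544 by limma). The siRNA B call was also lost without control replicate 2, where the value fell to 0.52 (adjusted p = 0.0834 by limma), without siRNA B replicate 1 (0.80, adjusted p = 0.0856) and without siRNA B replicate 3 (0.85, adjusted p = 0.0593).

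The makeup of the JUN family was set per length within each library, a share that does not depend on the scaling between libraries. JUNB made up 36.1%, 47.9% and 41.3% of JUN family transcripts in control, 58.3%, 75.0% and 59.7% with siRNA A and 39.5%, 45.1% and 40.6% with siRNA B. All siRNA A libraries were above all others, and control and siRNA B overlapped. The share of JUND was 47.1% ± 2.37 in control and 47.4% ± 0.527 with siRNA B, but 25.0% ± 5.19 with siRNA A (SD, n = 3). JUN held 11.1%, 10.7% and 10.9% in control, siRNA A and siRNA B. In a two-sided exact permutation test, p was 0.1 for JUNB and for JUND between siRNA A and control and between siRNA A and siRNA B, the smallest value that 3 libraries against 3 can give, and 1 and 0.8 between siRNA B and control. The sum of the family was 65.4 ± 8.19 TMM-scaled CPM per kb in control, and 145 ± 45.4 and 124 ± 8.50 with siRNA A and B. The makeup of the family with siRNA B thus stayed within the spread of control while its sum stood higher.

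In the FOS family, FOSL1 kept the largest share in every library. Its share was 91.6% ± 1.36 of the transcripts per length in control, and 92.5% ± 1.81 and 91.1% ± 1.87 with siRNA A and B (SD, n = 3). FOSL2 held 4.76%, 3.17% and 6.02%, FOS 2.68%, 3.23% and 2.29%, and FOSB 0.945%, 1.11% and 0.559%. The FOSL2 share was 2.29% to 4.19% with siRNA A and 4.72% to 7.99% with siRNA B, without overlap. The FOSB share with siRNA B lay below control and below siRNA A without overlap. For these 3 comparisons p was 0.1 in the two-sided exact permutation test, again the smallest possible. The sum of this family was 135 ± 23.0 TMM-scaled CPM per kb in control, and 289 ± 25.3 and 260 ± 19.3 with siRNA A and B.

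**Figure D3:**
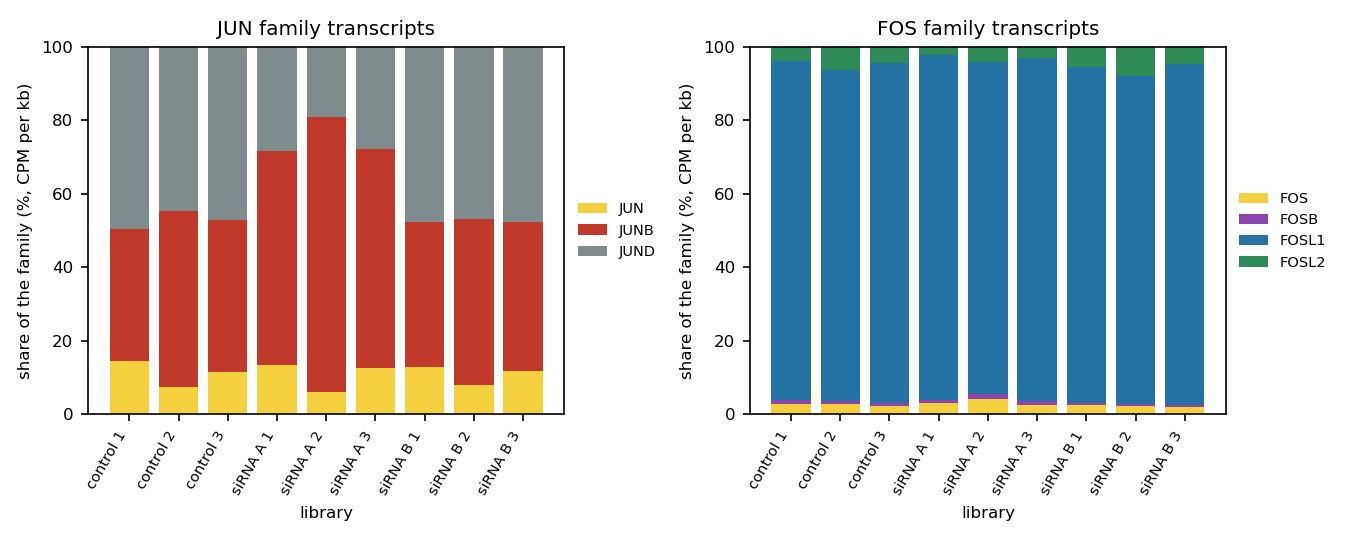
Share of each family's transcripts (%, from CPM per kb of canonical transcript) held by each gene in each of the 9 libraries, for the JUN family on the left and the FOS family on the right. JUNB held 58.3% to 75.0% of the JUN family with siRNA A and 36.1% to 47.9% elsewhere, and FOSL1 held 89.1% to 93.7% of the FOS family in every library.

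ATF3 had the largest log2 fold change of the 10 genes with siRNA A, and with siRNA B it stood beside FOSL2 (1.34 and 1.28 by limma, 1.33 and 1.35 by edgeR). It encodes an ATF/CREB family protein that is induced by many stresses and acts mostly as a repressor when it forms homodimers. ATF3 stood at 27.2, 13.4 and 22.4 TMM-scaled CPM in control, at 95.6, 203 and 92.1 with siRNA A and at 61.1, 48.2 and 49.5 with siRNA B. None of the 3 groups overlapped. With siRNA A the mean was 6.21 times that of control, 2.53 on the log2 scale (adjusted p = 4.42e-05 by limma, SE 0.29), and 6 of the 13893 genes tested had a larger one. With siRNA B it was 2.52 times that of control, 1.34 on the log2 scale (adjusted p = 0.00456 by limma). Without siRNA A replicate 2 the value with siRNA A was 2.17 (adjusted p = 7.88e-05 by limma).

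EGR1, a zinc finger factor that ERK signalling induces through SRF and ETS proteins, followed the same order. It stood at 72.8, 85.0 and 103 TMM-scaled CPM in control, at 243, 356 and 239 with siRNA A and at 182, 202 and 171 with siRNA B, with no overlap between any of the groups. EGR1 rose by 1.66 on the log2 scale with siRNA A (adjusted p = 1.78e-05 by limma, SE 0.17), a ratio of 3.20, and by 1.09 with siRNA B (adjusted p = 0.000513 by limma), a ratio of 2.12. Its promoter was the one with 2 SRE cores and 2 short CREs shown above.

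IER3 was the most abundant of the genes and rose with both siRNAs. It stood at 316, 272 and 292 TMM-scaled CPM in control, at 825, 1444 and 669 with siRNA A and at 569, 616 and 577 with siRNA B, without overlap between the groups. The log2 fold change was 1.66 with siRNA A (adjusted p = 9.38e-05 by limma, SE 0.22) and 1.0 with siRNA B (adjusted p = 0.00424 by limma). Without siRNA A replicate 2 the value with siRNA A was 1.34 (adjusted p = 3.34e-05 by limma).

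IER2 rose with siRNA A and did not pass the test with siRNA B. It stood at 99.0, 89.7 and 89.2 TMM-scaled CPM in control, at 184, 194 and 153 with siRNA A and at 100.1, 91.7 and 100.3 with siRNA B. The siRNA A libraries were above all others, while siRNA B and control overlapped. The rise with siRNA A was 0.92 (adjusted p = 4.60e-05 by limma, SE 0.11). With siRNA B the value was 0.07 (adjusted p = 0.643 by limma), and −0.14 with library totals alone (adjusted p = 0.371 by limma).

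**Figure D4:**
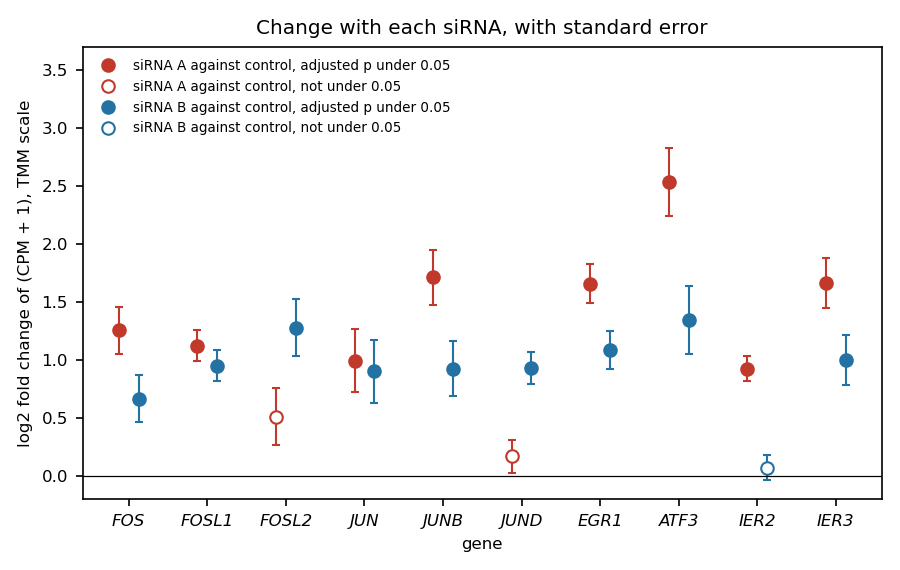
Log2 fold change of (TMM-scaled CPM + 1) for each gene with siRNA A (red) and siRNA B (blue) against control, with the standard error from limma as bars and filled points for adjusted p under 0.05. ATF3 stood highest with siRNA A at 2.53, and the open points are FOSL2 and JUND with siRNA A and IER2 with siRNA B.

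The direct comparison of the siRNAs asked which responses differed in size. Of the 10 genes, 6 were higher with siRNA A (FOS, JUNB, EGR1, ATF3, IER2 and IER3), 2 were lower (FOSL2 and JUND), and FOSL1 and JUN did not pass. Among all genes tested, 37.1% were called, 17.6% higher and 19.5% lower with siRNA A. The siRNA A libraries lay above the siRNA B libraries without overlap in 5 members (JUNB, EGR1, ATF3, IER2 and IER3), as in 22.6% of all genes. In JUND they lay entirely below, as in 3475 of the 13893 genes tested. The log2 difference was 1.19 for ATF3 (adjusted p = 0.00814 by limma) and 0.85 for IER2 (adjusted p = 0.000151 by limma). It was −0.76 for JUND (adjusted p = 0.00166 by limma) and −0.77 for FOSL2 (adjusted p = 0.0294 by limma). For JUNB it was 0.79, for IER3 0.66, for FOS 0.59 and for EGR1 0.57, with adjusted p in limma of 0.0222, 0.0321, 0.0384 and 0.0183. These last 4 calls were lost, in each case, when 1 or more of the single libraries was left out. Without siRNA A replicate 2, JUNB stood at 0.44 (adjusted p = 0.0396 by limma), IER3 at 0.34 (adjusted p = 0.0581), EGR1 at 0.38 (adjusted p = 0.0642) and FOS at 0.38 (adjusted p = 0.147), and 3 genes were called higher. Without siRNA B replicate 1 or without siRNA B replicate 3, 2 were called higher, and JUNB stood at 0.71 and 0.75 (adjusted p = 0.0743 and 0.0545 by limma). With library totals alone, FOS (0.44, adjusted p = 0.0847 by limma) and IER3 (0.50, adjusted p = 0.0562 by limma) did not pass. FOSL2 was lost without siRNA A replicate 1 (−0.60), siRNA A replicate 3 (−0.69) or siRNA B replicate 2 (−0.49). Of the 8 calls, those of ATF3, IER2 and JUND were kept under every setting tried.

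Most pairs of these genes varied together across libraries. The group mean was highest with siRNA A, then siRNA B, then control in 8 genes, and highest with siRNA B, then siRNA A, then control in FOSL2 and JUND. Within the siRNA A group, replicate 2 was the highest library in 7 of 10 genes and replicate 3 the lowest in 8. Replicate 2 was also the highest of the siRNA B group in 7 genes, and control replicate 2 was the lowest of its group in 6. Over the 45 pairs of genes and the 9 libraries, Pearson's r on the log2 scale had a median of 0.74 and ran from −0.20 to 0.99. These points share 3 group means and their library factors, and with group means removed the median was 0.54. In that form 5 of the 45 pairs were below 0, and the lowest was JUN with FOSL2 at −0.63. The r values describe these 9 libraries. Pairs of other genes were not summarised in this way, so the values are not shown to be particular to these genes.

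For the 4 genes with the widest range of group means, the genes most like them over the 9 libraries were listed by Pearson's r on the log2 scale. For ATF3 these were RBM22 (0.989), HNRNPA1 (0.987) and MICA (0.986). For JUNB they were ZNF408 (0.991), RPL41 (0.990) and BHLHE40 (0.988), and for IER3 they were EEF1A1 (0.991), the unnamed ENSG00000206823 (0.990) and RPL41 (0.990). For EGR1 they were BRD2, EIF2S3B and CCT4 (0.993, 0.993 and 0.992). With 3 groups such values are common: 609 tested genes had r over 0.9 with ATF3, 522 with JUNB, 605 with IER3 and 676 with EGR1.

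The other genes of the AP-1 family had medians nearer to those of all genes. Of 13 other family genes tested, 4 rose and 2 fell with siRNA A (median log2 fold change 0.20), and 3 rose and 1 fell with siRNA B (median 0.17), beside medians of −0.02 and 0.0043 over all genes. As shares of the list these were 30.8% higher and 15.4% lower, and 23.1% and 7.69%, beside the 23.9% and 27.6%, and 15.6% and 18.3%, of all genes. MAFF, a small MAF protein without a transactivation domain, had mean levels of 14.2, 71.9 and 42.3 TMM-scaled CPM in the control, siRNA A and siRNA B groups. It rose on the log2 scale by 2.29 (adjusted p = 2.12e-06 by limma) and 1.53 (adjusted p = 4.42e-05 by limma), and stood higher with siRNA A than with siRNA B by 0.75 (adjusted p = 0.00329 by limma). ATF1, a CREB relative that binds the CRE, rose by 1.30 with siRNA A (adjusted p = 1.36e-05 by limma), and FOSB by 1.19 (adjusted p = 0.000406 by limma). BATF2 fell by 0.84 with siRNA B from a control mean of only 1.37 (adjusted p = 0.00206 by limma), and ATF7 rose by 0.59 (adjusted p = 0.00329 by limma). JDP2, a repressive JUN partner, was lower with siRNA A than with siRNA B by a log2 difference of −1.22 (adjusted p = 0.000205 by limma), and FOSB was higher by 1.02 (adjusted p = 0.00196 by limma). With library totals alone, 3 of the 13 rose and 5 fell with siRNA A, while 1257 of all 13893 genes rose and 6532 fell. The balance of this list, like that of all genes, thus depends on the scaling.

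Among other immediate early genes, most calls against control were in the higher direction. Of 30 tested, 16 rose and 2 fell with siRNA A (median 0.53), and 17 rose and 2 fell with siRNA B (median 0.64), which is 53.3% and 56.7% of the list higher beside 23.9% and 15.6% of all genes. With library totals alone these counts were 10 and 6, and 14 and 2, beside 1257 and 6532, and 958 and 4127, of all genes. CCN1 (CYR61), a matricellular protein also known as a YAP target, had mean levels of 31.4, 292 and 119 TMM-scaled CPM in the control, siRNA A and siRNA B groups. It rose on the log2 scale by 3.10 (adjusted p = 7.41e-06 by limma) and 1.91 (adjusted p = 0.000335 by limma). TRIB1, a pseudokinase, and CCN2 (CTGF) rose with siRNA A by 1.67 (adjusted p = 0.000883 by limma) and 1.56 (adjusted p = 0.000181 by limma). The orphan nuclear receptors NR4A3 and NR4A1 rose with siRNA B by 1.35 (adjusted p = 0.00211 by limma) and 1.26 (adjusted p = 0.00107 by limma). Between the siRNAs, 8 genes were higher and 8 lower with siRNA A, or 26.7% in each direction, beside 17.6% and 19.5% of all genes. The antiproliferative gene BTG2 was lower with siRNA A than with siRNA B (−1.63, adjusted p = 9.39e-06 by limma), as was KLF2 (−1.37, adjusted p = 0.000242 by limma), and the polo-like kinase PLK2 was higher (1.19, adjusted p = 0.00526 by limma).

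Genes that AP-1 is known to activate were followed next. Of 35 genes listed, 27 had a row and 25 passed the filter on low values. MMP3, MMP9 and MMP10 had no row, and MMP1 and MMP13 did not pass. Of the 25 tested, 16 rose and 2 fell with siRNA A (median 0.52), and 13 rose and 2 fell with siRNA B (median 0.32). With library totals alone these counts were 9 and 4, and 10 and 4, beside 1257 and 6532, and 958 and 4127, of all genes. On the TMM scale the shares higher among those tested were 64.0% and 52.0%, beside 23.9% and 15.6% of all genes. KRT18, 1 gene of the list, is also among the epithelial markers. LAMB3, a chain of laminin 332, rose with both siRNAs, by 1.47 (adjusted p = 2.58e-05 by limma) and 1.34 (adjusted p = 9.16e-05 by limma). HBEGF, an EGF receptor ligand, rose by 1.34 and 0.98 (adjusted p = 2.29e-05 and 0.000333 by limma). PLAUR, the urokinase receptor, rose by 1.35 with siRNA A (adjusted p = 5.12e-05 by limma) and was higher with siRNA A than with siRNA B by 1.05 (adjusted p = 0.000485 by limma). The collagen-binding integrin ITGA2 fell by 1.04 with siRNA B (adjusted p = 0.00280 by limma) and was higher with siRNA A than with siRNA B by 0.97 (adjusted p = 0.00404 by limma). Urokinase itself, PLAU, was lower with siRNA A than with siRNA B (−0.86, adjusted p = 0.0155 by limma), a call lost without siRNA A replicate 1 (−0.75) or replicate 3 (−0.71).

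Feedback genes of the MAP kinase pathway were called about as often as genes in general. Of 23 tested, 7 rose and 4 fell with siRNA A (median 0.31), and 3 rose and 4 fell with siRNA B (median 0.05). These are 30.4% higher and 17.4% lower, and 13.0% and 17.4%, beside 23.9% and 27.6%, and 15.6% and 18.3%, of all genes. With library totals alone the counts were 2 and 6, and 1 and 6, beside 1257 and 6532, and 958 and 4127, of all genes. The majority with siRNA A thus turned, on a scale where most calls over all genes were lower. DUSP6, the ERK phosphatase often used as a readout of ERK activity, went from a mean of 123 TMM-scaled CPM in control to 57.9 and 65.9. It fell by 1.09 with siRNA A (adjusted p = 5.57e-05 by limma) and by 0.89 with siRNA B (adjusted p = 0.000406 by limma). ETV5, an ETS factor downstream of ERK, fell by 1.61 with siRNA A (adjusted p = 9.99e-07 by limma) and differed between the siRNAs by −1.58 (adjusted p = 2.01e-06 by limma). DUSP5, a nuclear ERK phosphatase, rose by 1.44 with siRNA A (adjusted p = 2.63e-05 by limma) and was higher than with siRNA B by 1.01 (adjusted p = 0.000502 by limma). DUSP2 fell by 1.28 with siRNA B (adjusted p = 4.00e-05 by limma) and was higher with siRNA A by 1.40 (adjusted p = 2.68e-05 by limma), and ERRFI1, an inhibitor of the EGF receptor, rose by 1.13 (adjusted p = 0.000234 by limma). DUSP6 and ETV5 thus stood in the direction opposite to EGR1 with siRNA A.

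Kinases and SRF factors that act upstream were followed last. Of 31 tested, 8 rose and 7 fell with siRNA A (median 0.03), and 8 rose and 10 fell with siRNA B (median 0.14). With library totals alone these counts were 4 and 16, and 2 and 11, beside 1257 and 6532, and 958 and 4127, of all genes. On the TMM scale 25.8% were higher and 22.6% lower with siRNA A, close to the 23.9% and 27.6% of all genes. With siRNA B the shares were 25.8% and 32.3%, beside 15.6% and 18.3% of all genes. NRAS rose by 1.18 with siRNA A (adjusted p = 6.03e-05 by limma) and MAPK8, which encodes JNK1, by 0.91 (adjusted p = 4.18e-05 by limma), while the RAF kinase ARAF fell by 1.05 (adjusted p = 0.000119 by limma). The largest changes with siRNA B were falls, of MAP2K3 by 1.07 (adjusted p = 0.000507 by limma), RPS6KA4 by 1.04 (adjusted p = 6.72e-05 by limma) and MAPK13 by 0.98 (adjusted p = 0.000233 by limma). Between the siRNAs, 32.3% of this list were higher and 25.8% lower with siRNA A, beside 17.6% and 19.5% of all genes. The shares were 26.1% and 13.0% of the 23 feedback genes, 24.0% and 16.0% of the 25 AP-1 targets and 30.8% and 23.1% of the 13 other AP-1 family genes. MAP2K3, RPS6KA4 and MAPK13 were higher with siRNA A than with siRNA B, by 1.35, 1.08 and 1.17 (adjusted p = 0.000114, 5.75e-05 and 8.17e-05 by limma).

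**Figure D5:**
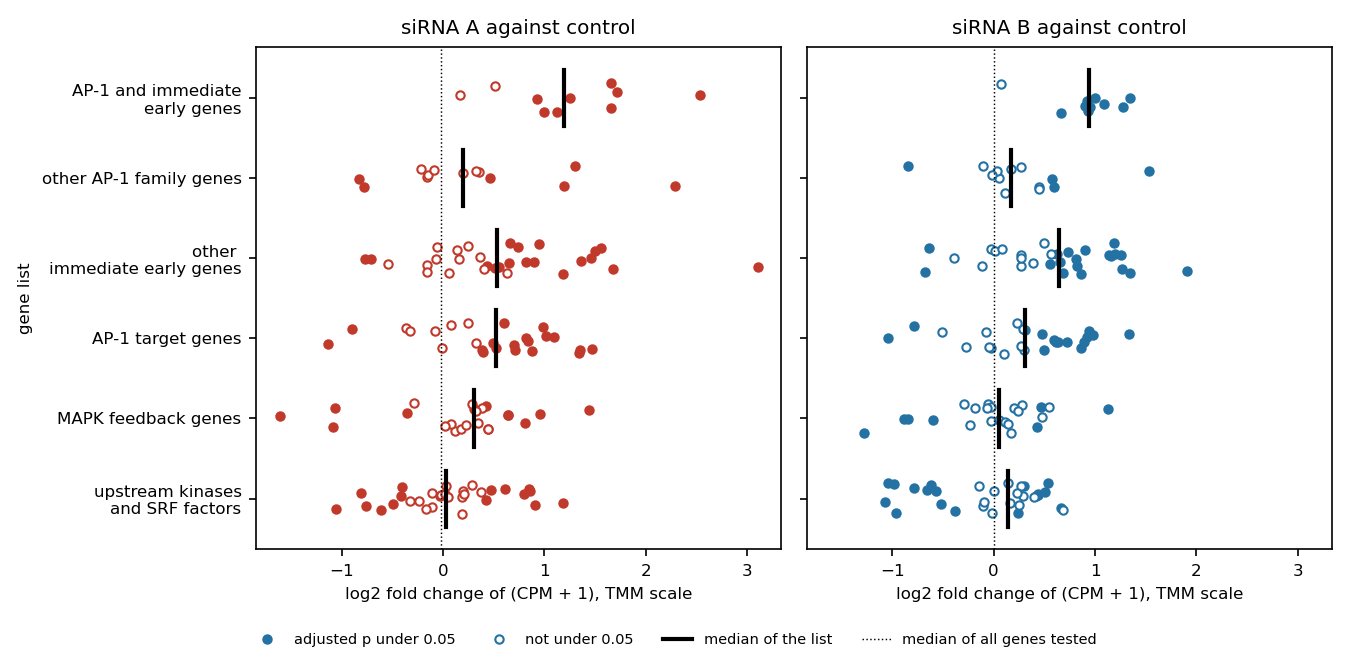
Log2 fold change of (TMM-scaled CPM + 1) of each tested gene in 6 lists, for siRNA A on the left and siRNA B on the right, with filled points for adjusted p under 0.05 in limma, thick bars for list medians and a dotted line for the median of all genes tested. The 10 AP-1 and immediate early genes have medians of 1.19 and 0.94, and the medians of the other lists run from 0.03 to 0.64.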

How the data were processed

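Poly(A) RNA of HCT116 cells was sequenced from single ends, per the labels. The submitters' processing notes name TopHat2, HTSeq and the GRCh37 (hg19) build, and use of strand is not given in the sources used here. The authors deposited CPM for 15354 genes, that is, reads per gene scaled to a library total of 1e+06. 100% of the deposited CPM values were whole reads within 0.01, so reads and library totals were recovered. Identifiers were matched without version to GENCODE lifted to GRCh37 (14871 matched, 483 did not), and lengths are those of the Ensembl canonical transcript.

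The 13893 genes that reached 1 CPM in 3 or more libraries were tested on log2(TMM-scaled CPM + 1) with limma 3.58.1 (trended variance) in R 4.3.3, with 1 mean per group and Benjamini-Hochberg adjustment, at a threshold of 0.05. On this scale a fold change of a low gene is understated. TMM factors came from edgeR 4.0.16, and shares were compared by exact permutation tests. The fits were tested on simulated data in which 200 genes changed in 1 group, which does not test the choice of scaling. Alternatives were library totals alone, median-of-ratios factors, a pseudocount of 0.1, no filter, only the 2 groups compared, a replicate block, edgeR and DESeq2 1.42.0 on the recovered reads, and leaving out each of 9 libraries. After removal of group means, libraries with the same number correlated over genes with r of 0.646, 0.411 and 0.130 between control and siRNA A. Between control and siRNA B, r was 0.173, 0.445 and −0.386, and between siRNA A and siRNA B 0.204, 0.442 and 0.019. Libraries with different numbers were not compared, so this check cannot show that the numbers pair. Pairs within groups differed by a chi-square of at least 12.2 per degree of freedom, so none was counted as a repeat. Nothing beyond the study's word names separate cultures, and p-values measure the spread between these libraries. Reads carried no molecular identifiers, so depth sets counting error only.

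The members and lists were chosen with earlier results of these data known. All 10 members are named, and of each list the 3 called genes per comparison with the largest absolute log2 fold change. Motifs were searched with Python 3.11.15 in the RefSeq promoters of GRCh38.p14. No other coordinates are from that build.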

Additional observations from a re-analysis of the deposited data

Results flagged for a closer look

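FOSL2, JUND and IER2 passed the test against control with 1 siRNA and not with the other, and the siRNAs themselves differed in them. The log2 difference of siRNA A minus siRNA B was −0.77 for FOSL2 (limma, adjusted p = 0.0294), −0.76 for JUND (limma, adjusted p = 0.00166) and 0.85 for IER2 (limma, adjusted p = 0.000151). In FOSL2 the groups overlapped, whereas in JUND and IER2 all 3 libraries of siRNA A lay on 1 side of those of siRNA B. Such a separation was common: of the 13893 genes tested, siRNA A lay entirely above siRNA B in 3139 and entirely below it in 3475. With the replicate block, FOSL2 also passed with siRNA A (adjusted p = 0.00802 by limma). Its difference between the siRNAs did not pass without siRNA A replicate 1 (−0.60), without siRNA A replicate 3 (−0.69) or without siRNA B replicate 2 (−0.49).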

How the results depend on the processing

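The counts of members called against control moved by less than 1.5 times under every alternative. With siRNA A, 8 rose, or 7 with library totals alone, 9 with the replicate block and 9 in the fit of only the 2 groups, and 8 to 9 when 1 library was left out. With siRNA B, 9 rose, or 7 with library totals alone, and 7 to 9 with 1 library left out. Between the siRNAs, 6 were higher and 2 lower with siRNA A, or 4 and 2 with library totals alone, and leaving out 1 library gave 2 to 6 higher and 1 to 2 lower. The replicate block changed 1 member's call, FOSL2 with siRNA A, and moved the calls over all genes with siRNA A from 7145 to 8093. The share of higher genes among all calls fell with library totals alone from 46.4% to 16.1% with siRNA A, from 46.0% to 18.8% with siRNA B and from 47.6% to 27.4% between the siRNAs. Directions turned in 5 cases, none of them called: JUN between the siRNAs with library totals alone (−0.061), without siRNA A replicate 1 (−0.090) and without siRNA B replicate 2 (−0.051) (the range with 1 library left out being −0.090 to 0.22), JUND with siRNA A (−0.20) and IER2 with siRNA B (−0.14), both with library totals alone. The causes were not tested. Counting error was largest for FOS, with 151 to 370 reads per library.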
